A study of Homo sapiens with 48 samples.

Results

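The subject is a single comparison of steady-state mRNA. It is taken to be untreated MCF10A-1 cells that carry SATB1 over untreated MCF10A-1 cells that carry an empty control vector. Its members are the 15535 rows with a gene symbol among the 15691 rows of the authors' deposited RNA-seq table, read in the first of 5 numbered contrasts; both tables of the series together hold 30280 rows with a symbol. MCF10A-1 is a line of human breast epithelium. According to the labels, both groups had 4 RNA-seq libraries and grew in the same medium, with fetal bovine serum in place of horse serum and with epidermal growth factor, hydrocortisone, insulin and cholera toxin; neither received benzo[a]pyrene. The labels do not say whether the SATB1 line is a clone or a pool, nor whether a group's 4 libraries were separate cultures. The p-values therefore measure spread among libraries that could be technical repeats.

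SATB1 is a nuclear protein that binds AT-rich stretches of DNA prone to unwinding and tethers them, together with chromatin-modifying enzymes, into loops; it is best known from thymocytes, and has been studied in breast cancer for its link to invasive growth. Epithelial cells hold to one another through adherens junctions, desmosomes and tight junctions and rest on a basement membrane. In the epithelial-to-mesenchymal transition (EMT) such contacts are lost and fibrillar matrix, protease and contractile genes are turned on. One aim of the study was to find EMT genes that respond to SATB1.

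The authors' deposited table gives a fold change (a linear ratio, here SATB1 cells over vector cells) and an unadjusted p-value per gene, and no value per library, so no level, spread or depth is known here. Every fold below is taken from the authors' deposited table. A fold above 1 means higher in SATB1 cells. A gene was called when its p-value, adjusted by the Benjamini-Hochberg method over all rows with a symbol, was under 0.05. The figure after ± is the standard error of the log2 fold change implied by the fold and its p-value. It assumes that the p-value came from a Student t test. In bulk RNA, fewer cells of a type and less RNA per cell cannot be told apart.

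The headers number the contrasts without naming groups, and the first was taken as SATB1 over vector because SATB1 itself moved there. A SATB1 increase would also be seen between groups given benzo[a]pyrene, so it cannot show that both groups were untreated. That part is an assumption. SATB1 (chromosome 3, 18345377 to 18445592, GRCh38.p14) was 112-fold in the authors' deposited table (log2 6.81 ± 0.14, adjusted p = 2.3e-26), the smallest adjusted p of the comparison. In the other 4 contrasts SATB1 was 1.05-fold, 0.836-fold, 0.953-fold and 1.49-fold in the authors' deposited table. The implied standard errors of the first contrast were, in the median over genes, 1.01, 1.01, 0.996 and 0.984 times those of contrasts 2 to 5. This likeness is partly built in, because the degrees of freedom were set where a gene's 5 errors varied least.

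Marker genes of the breast epithelium were checked in the same table. The basal keratin genes KRT5 (0.727-fold), KRT14 (0.568-fold) and KRT17 (0.644-fold), the basal transcription factor gene TP63 (0.810-fold) and the E-cadherin gene CDH1 (0.662-fold) fell in the authors' deposited table. The epithelial adhesion gene EPCAM (1.25-fold) and the simple-epithelium keratin genes KRT8 (1.37-fold) and KRT18 (1.20-fold) rose. All 8 passed the test, and none changed by 2-fold. The ratios do not give their levels.

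Of all 15535 rows, 3600 were called higher (23.2%) and 3218 lower (20.7%). Most called changes were small: the median size was 1.19-fold, and 4073 of the 6818 calls (59.7%) were under 1.25-fold. Larger changes leaned towards increases. At 2-fold or more, 609 were called higher (3.92%) and 433 lower (2.79%); at 4-fold or more, 333 and 136; at 16-fold or more, 106 and 14; at 100-fold or more, 19 and 2. The median log2 fold change over all rows was 0.0057. Counts of the gene lists below are to be read against the shares of all rows given here.

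**Figure D1:**
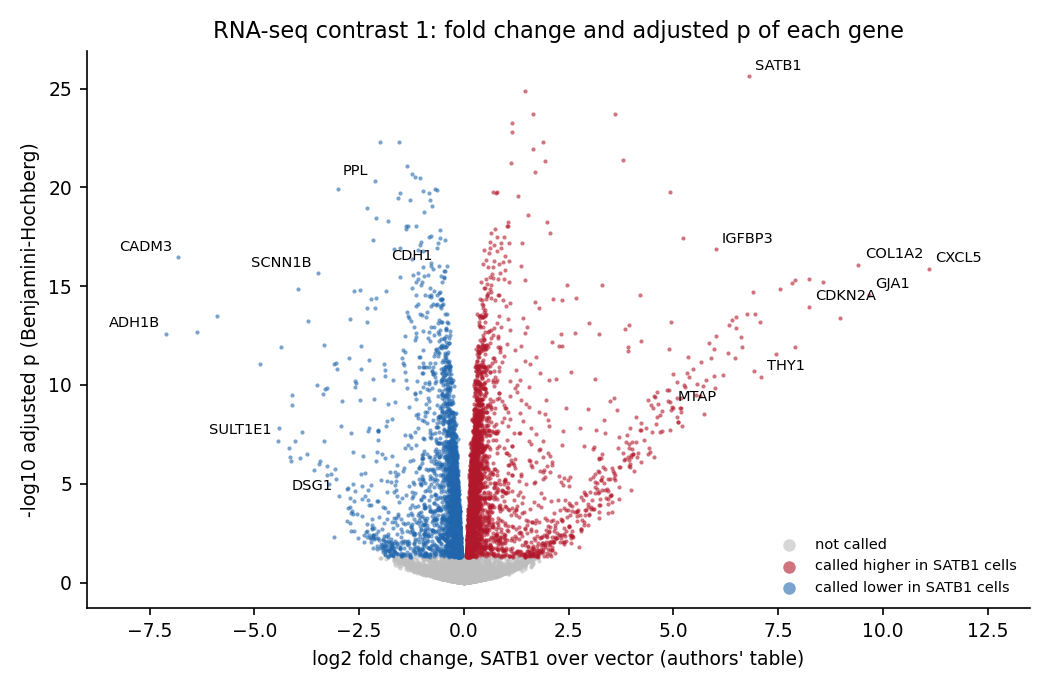
Each point is a gene, by its log2 fold change (SATB1 over vector, from the authors' deposited table) and the -log10 of its adjusted p; red points are called higher, blue points called lower and grey points not called. SATB1 has the smallest adjusted p, and increases reach further from 0 than decreases.

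The largest increases ran from 123-fold to 2178-fold. CXCL5, a neutrophil-attracting chemokine gene, was 2178-fold in the authors' deposited table (log2 11.09 ± 0.58, adjusted p = 1.3e-16), and GJA1, which encodes the gap junction protein connexin 43, was 809-fold (log2 9.66 ± 0.57). COL1A2 was 681-fold, the lipid droplet coat gene PLIN2 501-fold, COL3A1 379-fold, the scavenger receptor gene CD163 302-fold and the cell cycle inhibitor gene CDKN2A 301-fold. The others of the 15 largest were PLBD1, which encodes a phospholipase B-like protein (240-fold), IGFN1 (239-fold), COL5A1 (226-fold), the BMP antagonist gene CHRDL1 (185-fold), the matricellular gene THBS2 (174-fold), the surface glycoprotein gene THY1 (137-fold), the basement membrane gene NID2 (133-fold) and the glutathione transferase gene GSTM3 (123-fold). Their implied standard errors, between 0.43 and 0.62 on the log2 scale, lay far above the median of 0.058 over all rows.

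The largest decreases were of smaller size and held several enzyme and secretory genes. ADH1B, an alcohol dehydrogenase gene, was 0.00726-fold in the authors' deposited table (log2 -7.11 ± 0.50, adjusted p = 2.6e-13), the cell adhesion gene CADM3 0.00887-fold (log2 -6.82 ± 0.34) and ACMSD, an enzyme gene of tryptophan breakdown, 0.0121-fold. They were followed by the atypical chemokine receptor gene ACKR1 (0.0168-fold), the choline dehydrogenase gene CHDH (0.0345-fold), the estrogen sulfotransferase gene SULT1E1 (0.0463-fold), ATOH8 (0.0467-fold), the calcium-binding protein gene CALB1 (0.0489-fold) and the cytochrome gene CYP3A5 (0.0550-fold). The remaining 6 of the 15 smallest were SCGB1A1 (0.0565-fold), TREM1 (0.0574-fold), BEST2 (0.0582-fold), the squamous keratin gene KRT4 (0.0587-fold), SFTPB (0.0614-fold) and PNLIPRP3 (0.0646-fold).

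Some of these extremes share a mark of genes without reads on one side. For 132 genes the folds of contrasts 2 and 3 were one identical pair of numbers, 1.002 and 0.966 in the authors' deposited table, to 12 significant digits; the next most common pair was held by 16 genes. A fit on log values with an offset gives such a pair when all libraries of the groups compared hold the same count, as at 0, although the counts themselves are not in the table. Contrasts 2 and 3 were taken as comparisons within vector cells, and 4 and 5 as comparisons within SATB1 cells, although the headers name no groups. Genes at 0 in vector cells could be in the table only through SATB1 cells, so their direction follows from how they were picked: all 132 had a fold above 1 in the first contrast, and 79 were called higher, by 2.71-fold to 379-fold with a median of 12.1-fold. A second pair, 0.995 and 1.08 in contrasts 4 and 5, was held by 48 other genes, and the same holds for them in the other direction: 44 had a fold below 1 in the first contrast and 10 were called lower. Where a group is at 0, the size of a fold depends on the offset, for which the sources used here give no value.

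COL3A1, CD163, CDKN2A, PLBD1, CHRDL1 and GSTM3 were among the 79 genes, and ACMSD and SCGB1A1 among the 10. The other 8 of the 10, listed after their values were seen, were MMP7 (0.117-fold), FGF21 (0.263-fold), FOXI1 (0.288-fold), OMD (0.297-fold), FOXN1 (0.302-fold), NOX4 (0.354-fold), DRICH1 (0.354-fold) and PRR25 (0.354-fold) in the authors' deposited table. The X chromosome holds 525 and chromosome 19 holds 1165 of all 15500 genes with an unambiguous symbol. Among the 79, also described after their values were seen, 15 lie on the X chromosome and 13 on chromosome 19. They include developmental factor genes (SIM1, 35.4-fold; ZIC1, 23.2-fold; FOXE1, 21.8-fold), growth factor genes (GDNF, 79.4-fold; BMP5, 63.2-fold), germ-line and tumor antigen genes (MAGEA10, 79.9-fold; PRAME, 62.1-fold) and zinc finger genes (ZSCAN18, 89.7-fold; ZFP28, 39.9-fold) in the authors' deposited table. The GRO-seq table has a row for 45 of the 79, and 44 of these lay above 1; a gene without reads in vector cells could enter that table only through SATB1 cells, so the count supports nothing.

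The fibrillar collagen genes, which encode the fibers of interstitial matrix, rose by large factors. Of 9 tested, 6 were called higher and 1 lower (66.7% and 11.1%, against 23.2% and 20.7% of all genes), and their median log2 fold change was 1.94. COL1A1 was 12.1-fold in the authors' deposited table (log2 3.60 ± 0.09, adjusted p = 2.0e-24) and COL5A2 3.83-fold (log2 1.94 ± 0.06), measured far more precisely than COL1A2, COL3A1 and COL5A1. The cartilage collagen gene COL2A1 was 0.419-fold. Genes that fold and crosslink collagen moved by less: 10 of 19 were higher and 3 lower, with LOXL2, a lysyl oxidase gene, 1.77-fold and the lysyl hydroxylase gene PLOD1 1.44-fold in the authors' deposited table.

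Other matrix groups held more increases than decreases, to different degrees. Among 23 basement membrane genes, 12 rose and 5 fell, led by the nidogen genes NID2 (133-fold) and NID1 (14.9-fold), with smaller and precise increases of the laminin gene LAMB3 (1.65-fold) and of COL4A1 (1.62-fold) in the authors' deposited table. Of 27 matricellular and proteoglycan genes, 13 were higher and 6 lower. SPARC was 37.2-fold and WISP1, a CCN family gene, 52.0-fold, but DCN, which encodes decorin, 0.125-fold. The shares lower of the basement membrane and matricellular lists, 21.7% and 22.2%, were near the 20.7% of all genes. ADAM and ADAMTS protease genes, which shed surface proteins and cleave proteoglycans, counted 18, of which 11 rose and none fell. Of the 11, 8 changed by 2-fold or more (3.92% of all genes rose by that much). Among them were ADAMTS12 (14.3-fold) and ADAMTS5 (12.6-fold) in the authors' deposited table. Of 16 matrix metalloproteinase genes, 4 rose (25.0%, near the 23.2% of all genes), MMP3 (9.54-fold) among them, and 2 fell, MMP7 (0.117-fold) among them.

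Matrix genes are also markers of fibroblasts, so fibroblast markers were read as a whole list. Of 14 tested, 6 rose and 4 fell (median log2 fold change 0.53): COL1A2, COL3A1, THY1 and COL1A1 were at the top, and DCN (0.125-fold) and, chosen after its value was seen, POSTN (0.286-fold) were at the bottom in the authors' deposited table. Macrophage and monocyte markers had 1 of 10 higher, CD163 (302-fold), and 2 lower, ITGAM (0.351-fold) and LAPTM5 (0.548-fold). Lymphocyte markers had 1 of 10 higher (CD4, 3.13-fold) and 2 lower, endothelial markers 2 of 12 higher and 3 lower, adipocyte markers 1 of 8 higher and 4 lower, smooth muscle markers 4 of 11 higher and 2 lower, and neural markers 5 of 13 higher, such as SNAP25 (20.9-fold) and UCHL1 (18.5-fold), and 3 lower. The share lower was 20.0% for both macrophage and lymphocyte markers, near the 20.7% of all genes. Without levels, it cannot be said which of these markers are at 0, and the part of other cells in the matrix genes was not tested.

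Genes of the contractile actin cytoskeleton rose together by small amounts. Of 30 tested, 25 rose and 1 fell, and the median log2 fold change was 0.23. The smooth muscle genes TAGLN (2.11-fold) and MYL9 (2.08-fold) and the filamin gene FLNC (2.48-fold) passed 2-fold, and the actinin gene ACTN1 was 1.34-fold in the authors' deposited table. Their nascent RNA did not share this direction: 13 of 30 lay above 1, and TAGLN was 0.497-fold (log2 -1.01 ± 0.27, unadjusted p = 0.00096) and MYL9 0.554-fold in the authors' deposited GRO-seq table.

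Among cell-cell contact genes, those of desmosomes fell as a group. Of 17 desmosome and hemidesmosome genes, 11 fell and 2 rose (median log2 fold change -0.40). PPL, which encodes the desmosomal plaque protein periplakin, was 0.229-fold in the authors' deposited table (log2 -2.13 ± 0.07, adjusted p = 4.7e-21), PKP1 0.166-fold, the desmoglein gene DSG1 0.127-fold, DSG3 0.550-fold and DSP, the desmoplakin gene, 0.641-fold. Among 26 tight junction genes, 9 fell and 3 rose: TJP3 was 0.150-fold, CLDN1 0.433-fold and OCLN, the occludin gene, 0.508-fold, while JAM2 was 15.8-fold. Of 16 cadherin and catenin genes, 7 were lower and 3 higher. Among 11 gap junction genes, 5 were higher and 3 lower, and none but GJA1 changed by 2-fold.

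Regulators of epithelial identity fell with them. Of 22 tested, 13 fell and 3 rose (median log2 fold change -0.26). The largest decreases were those of OVOL1 (0.216-fold), EHF (0.233-fold, log2 -2.10 ± 0.13), GRHL3 (0.275-fold, log2 -1.86 ± 0.11), ELF3 (0.375-fold) and KLF4 (0.465-fold) in the authors' deposited table, all transcription factor genes that act in epithelial differentiation. Of 27 EMT transcription factor genes, 14 rose and 4 fell; the increases were by 2-fold or more for PRRX1 (99.1-fold), PRRX2 (3.57-fold) and FOSL1 (2.09-fold) and below it for ETS1 (1.74-fold, log2 0.80 ± 0.04). FOXQ1 was lower (0.499-fold). Of 35 mesenchymal markers, 20 were higher and 6 lower.

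**Figure D2:**
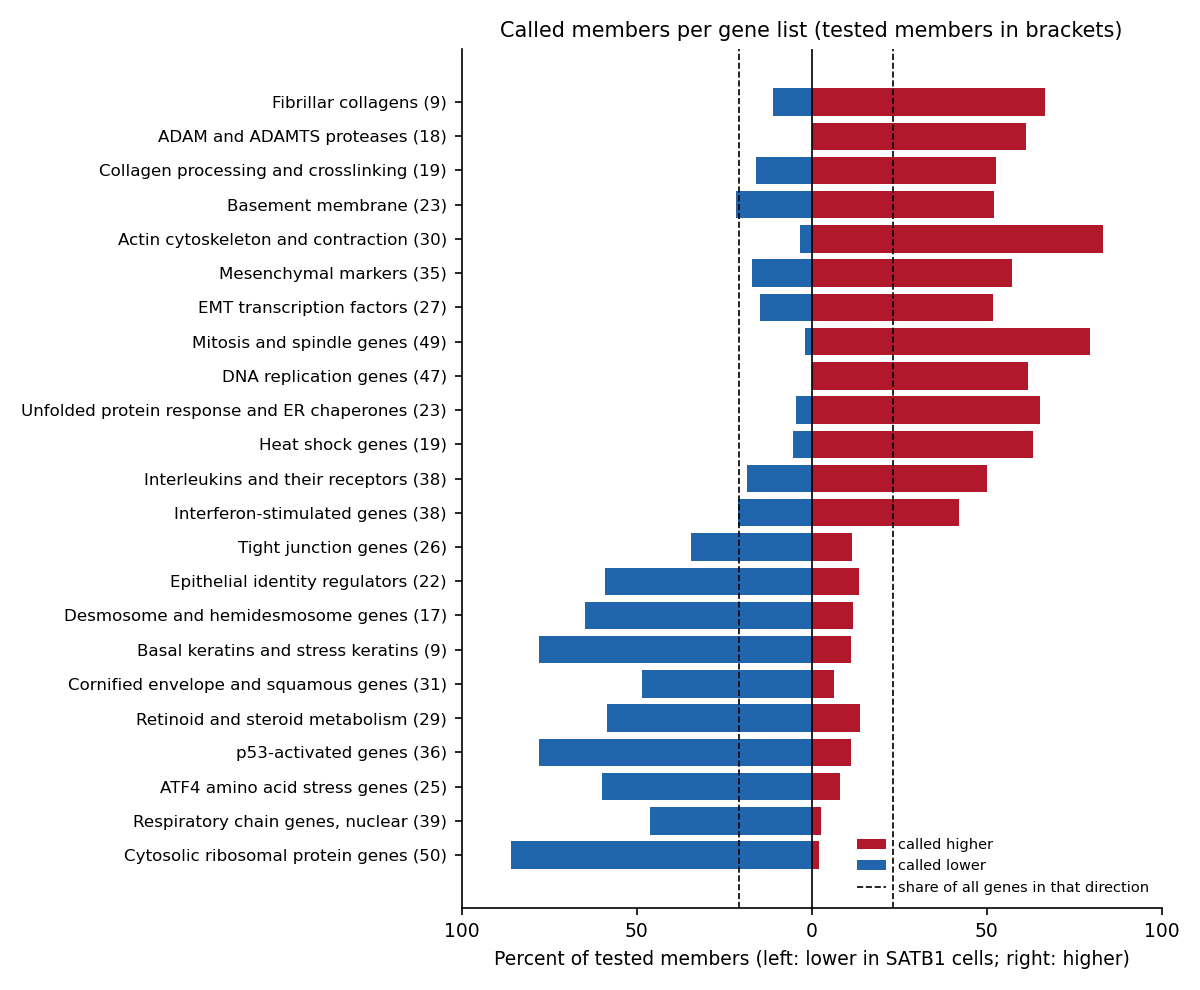
Bars give the percent of tested members called higher (red, to the right) and lower (blue, to the left) in SATB1 cells. Only a selection of the 81 gene lists is drawn. Lists left out include some close to even, such as glycolysis genes (34.8% higher and 30.4% lower). Dashed lines mark the share of all genes called in that direction, 23.2% higher and 20.7% lower. Matrix, actin, cell cycle and chaperone lists extend to the right, and junction, keratin, squamous, p53 and ribosomal protein lists to the left.

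The squamous program, the set of envelope proteins, keratins and proteases with which stratified epithelium hardens, held the deepest median of any list. Of 31 cornified envelope and squamous genes, 15 fell, 12 of them by 2-fold or more (against 2.79% of all genes), and 2 rose. Their median log2 fold change was -0.98. KRT4 was 0.0587-fold, the small proline-rich protein genes SPRR3, SPRR1A and SPRR1B 0.0983-fold, 0.180-fold and 0.202-fold, the kallikrein gene KLK10 0.117-fold and the transglutaminase gene TGM1 0.400-fold in the authors' deposited table. The 2 that rose were S100A9 (1.41-fold) and S100A8 (1.22-fold), named after their values were seen. Basal and stress keratin genes had 7 of 9 lower, from KRT15 (0.202-fold, log2 -2.31 ± 0.09) to KRT6B (0.736-fold), and KRT6A was higher (1.23-fold); KRT6A, KRT6B and KRT6C are near-identical, so reads may be split among them. Nascent RNA of the squamous list lay below 1 in 25 of 29 genes, with a median log2 fold change of -0.99, and TGM1 (0.198-fold) was called there too.

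Growth factor pathways held large changes, more in some than in others. At 2-fold or more, 4 of 20 PDGF, VEGF and angiopoietin genes rose and 2 fell, and 3 of 15 fibroblast growth factor genes rose and 3 fell. Among 16 genes of the insulin-like growth factor system these were 3 and 1, and among 40 WNT genes 4 and 1. Of all genes, 3.92% rose and 2.79% fell by that much. In the insulin-like growth factor system, where 6 of 16 genes rose and 5 fell (4 and 5 without chromosomes 15 and 17), the binding protein genes IGFBP3 (64.2-fold, log2 6.00 ± 0.29), IGFBP5 (20.2-fold) and IGFBP4 (2.66-fold) rose in the authors' deposited table. SMO, the signal transducer of the hedgehog pathway, was 46.3-fold, 1 of 3 called among 13 hedgehog genes. PDGFB, a platelet-derived growth factor gene, was 16.1-fold while the angiopoietin gene ANGPT1 was 0.165-fold. Among 40 WNT genes, 15 were higher and 9 lower (37.5% and 22.5%, against 23.2% and 20.7% of all genes). The extremes were the antagonist gene NKD2 (15.7-fold) and the ligand gene WNT4 (0.161-fold) in the authors' deposited table. Of 20 Notch genes, 8 were lower and 3 higher, with the receptor gene NOTCH3 at 0.222-fold (log2 -2.17 ± 0.10) and the glycosyltransferase gene LFNG at 0.443-fold. TGF-beta and BMP ligand and receptor genes were close to even, with 12 of 34 higher and 10 lower and a median log2 fold change of -0.0014. BMP4 was 3.28-fold.

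Cytokine genes leaned higher and interferon genes split. Of 38 interleukin and receptor genes, 19 rose and 7 fell, with IL13RA2, a decoy receptor gene, at 18.6-fold, IL24 at 6.41-fold and the interleukin-1 antagonist gene IL1RN at 0.154-fold in the authors' deposited table. Of 38 interferon-stimulated genes, 16 were higher and 8 lower, but 5 fell and 3 rose by 2-fold or more (2.79% and 3.92% of all genes). The antiviral gene MX2 (84.5-fold) and the apoptosis-linked gene XAF1 (44.5-fold) stood at the top and the tetherin gene BST2 (0.0977-fold, log2 -3.36 ± 0.32) at the bottom in the authors' deposited table. Of 18 complement genes, 10 fell and 4 rose (55.6% and 22.2%, against 20.7% and 23.2% of all genes). Of 22 NF-kappaB pathway genes, 9 rose and 2 fell. Chemokine genes other than CXCL5 went both ways, with CXCR4 (0.279-fold) and CXCL11 (0.262-fold) lower and CCL20 (1.60-fold) and CXCL1 (1.49-fold) higher.

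Proliferation, stress and translation genes shifted as groups, by small amounts. Among 49 mitosis genes, 39 rose and 1 fell (median log2 fold change 0.17; MYBL2, a cell cycle transcription factor gene, 1.36-fold), and among 47 DNA replication genes, 29 rose and none fell (TK1, thymidine kinase, 1.53-fold) in the authors' deposited table. The p53-activated list had 28 of 36 members lower and 4 higher, and the p53 relative TP73 was 0.153-fold. Among the cell cycle inhibitor genes, CDKN1C was 0.0983-fold while CDKN2A and CDKN2B (50.4-fold) were higher. Of 50 cytosolic ribosomal protein genes, 43 fell, none below 0.794-fold (RPL22), and 1 rose, RPL38 on chromosome 17 (1.07-fold; named after its value was seen). Of 39 nuclear-encoded respiratory chain genes, 18 fell and 1 rose.

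Arms of the stress response went opposite ways. Of 25 amino acid stress genes driven by ATF4, 15 fell and 2 rose, with CHAC1 (0.207-fold), which encodes a glutathione-degrading enzyme, NUPR1 (0.424-fold) and ATF4 itself (0.794-fold) in the authors' deposited table. Of 20 tRNA synthetase genes, many of which ATF4 activates, 11 fell and 4 rose. Endoplasmic reticulum chaperone and unfolded protein response genes numbered 23, of which 15 rose and 1 fell (median log2 fold change 0.26; CALR, calreticulin, 1.32-fold); of 19 heat shock genes, 12 rose and 1 fell. In the heat shock group HSPA1A (1.63-fold) and HSPA1B (1.45-fold) are near-identical and their reads can be split.

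Several of these groups lay on the other side of 1 in nascent RNA. Cytosolic ribosomal protein genes were above 1 in GRO-seq in 48 of 49 cases (median log2 fold change 0.34), and ATF4 genes in 20 of 23 (0.73). CHAC1 was 7.05-fold and NUPR1 3.90-fold in the authors' deposited GRO-seq table. DNA replication genes were above 1 in 5 of 47 cases (-0.45), mitosis genes in 11 of 49 (-0.23) and heat shock genes in 4 of 18 (-0.22). The p53-activated genes were above 1 in 25 of 36 cases (0.22), tRNA synthetase genes in 15 of 20 (0.31) and complement genes in 12 of 15 (0.58). Tight junction genes (0.15) and EMT transcription factor genes (-0.17) also had medians opposite in sign to those of mRNA. With 13 of 22 and 11 of 26 above 1, they lay nearer the 49.7% of all genes in both tables. Matching sides were found for chaperone genes, 19 of 23 above 1, and for the squamous and desmosome lists, 4 of 29 and 6 of 17 above 1. Group shifts in nascent RNA were also seen where the mRNA median lay at 0: the median of 33 ribosome biogenesis genes was 0.00047 for mRNA and -0.37 for nascent RNA (log2 fold change), with 2 of 33 above 1 in GRO-seq.

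Metabolic genes held some of the deepest single decreases. Of 29 retinoid and steroid genes, 17 fell and 4 rose, including the sulfotransferase genes SULT1E1 (0.0463-fold) and SULT2B1 (0.184-fold) and the reductase gene AKR1C1 (0.284-fold), whose reads can be shared with its close relatives, against an increase of the retinoic acid receptor gene RARB (16.03-fold) in the authors' deposited table. In nascent RNA, 13 of 24 retinoid and steroid genes lay above 1, with a median log2 fold change of 0.22. Of 21 aldehyde and alcohol dehydrogenase genes, 9 fell and 5 rose, between ADH1B (0.00726-fold) and ALDH2 (3.47-fold). Of 24 ion transport genes, 10 were lower and 3 higher: the epithelial sodium channel subunit genes SCNN1B (0.0894-fold, log2 -3.48 ± 0.18), SCNN1G (0.315-fold) and SCNN1A (0.772-fold) all fell, and the potassium channel gene KCNMA1 rose (15.1-fold). Glycolysis and cholesterol genes were close to even, with 8 of 23 and 8 of 25 higher and 7 and 6 lower. Fatty acid and lipid droplet genes held more decreases, with 8 of 34 higher and 12 lower. These are 23.5% and 35.3%, against 23.2% and 20.7% of all genes.

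Genes of chromatin architecture, the setting in which SATB1 acts, moved little. Among 21 loop and architecture factor genes, 3 rose and 6 fell, with called folds between 0.874-fold (MAU2) and 1.12-fold (LMNB1) in the authors' deposited table. Of 16 genes of the SATB1 family and its reported partners, 6 were higher, SATB1 among them, and 5 lower; apart from SATB1 the called folds ran from 0.811-fold (TCF7L2) to 1.22-fold (PML). Polycomb and DNA methylation genes had 4 of 18 higher, with DNMT3B at 1.33-fold and DNMT1 at 1.21-fold, and 4 lower. Both shares were 22.2%, near the 23.2% and 20.7% of all genes.

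A short stretch of chromosome 9 held 3 of the largest changes side by side. MTAP (21802636 to 21941115, GRCh38.p14), an enzyme gene of methionine salvage, was 31.1-fold, CDKN2A 301-fold and CDKN2B 50.4-fold in the authors' deposited table. Tested genes around them were close to 1 or not called: KLHL9 was 1.06-fold (adjusted p = 0.18), IFNE 0.711-fold (adjusted p = 0.24), FOCAD 1.10-fold (adjusted p = 0.0053) and, beyond CDKN2B, DMRTA1 1.45-fold (adjusted p = 0.085). Nascent RNA was 12.3-fold for CDKN2A (unadjusted p = 0.028) and 7.54-fold for CDKN2B (unadjusted p = 0.0017) in the authors' deposited GRO-seq table. PLIN2, farther along the same arm, was 501-fold, with HAUS6 (1.08-fold, adjusted p = 0.067) and DENND4C (1.00-fold, adjusted p = 0.93) on either side not called. CDKN2A belongs to the 132 genes with the first repeated pair of folds, and MTAP and CDKN2B do not. Whether the vector and SATB1 cells carry the same copies of this region was not tested.

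Position also showed in the small changes. On chromosome 15, 52.1% of 489 genes were called higher and 7.36% lower, with a median log2 fold change of 0.196, and all 9 bins of 10 Mb along it had a positive median, from 0.10 to 0.31. On chromosome 17, 33.2% of 910 genes were called higher and 15.5% lower; the median was 0.013 over the 408 genes that start below 40 Mb and 0.12 over the 502 genes from there on. Of these, the 193 genes from 40 to 50 Mb had a median of 0.021, close to that below 40 Mb. The bins from 50 to 80 Mb had medians of 0.216, 0.134 and 0.178, and the last, from 80 Mb on, 0.053. Every other chromosome had a median between -0.018 and 0.026. In GRO-seq the chromosome 15 median was 0.036, exceeded by those of chromosomes 6, 8 and X. In RNA-seq contrasts 2 to 5, chromosome 15 medians lay between -0.014 and 0.011. The headers do not name the groups of these contrasts, which may share libraries with one another and with the first contrast. Copy number was not tested.

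**Figure D3:**
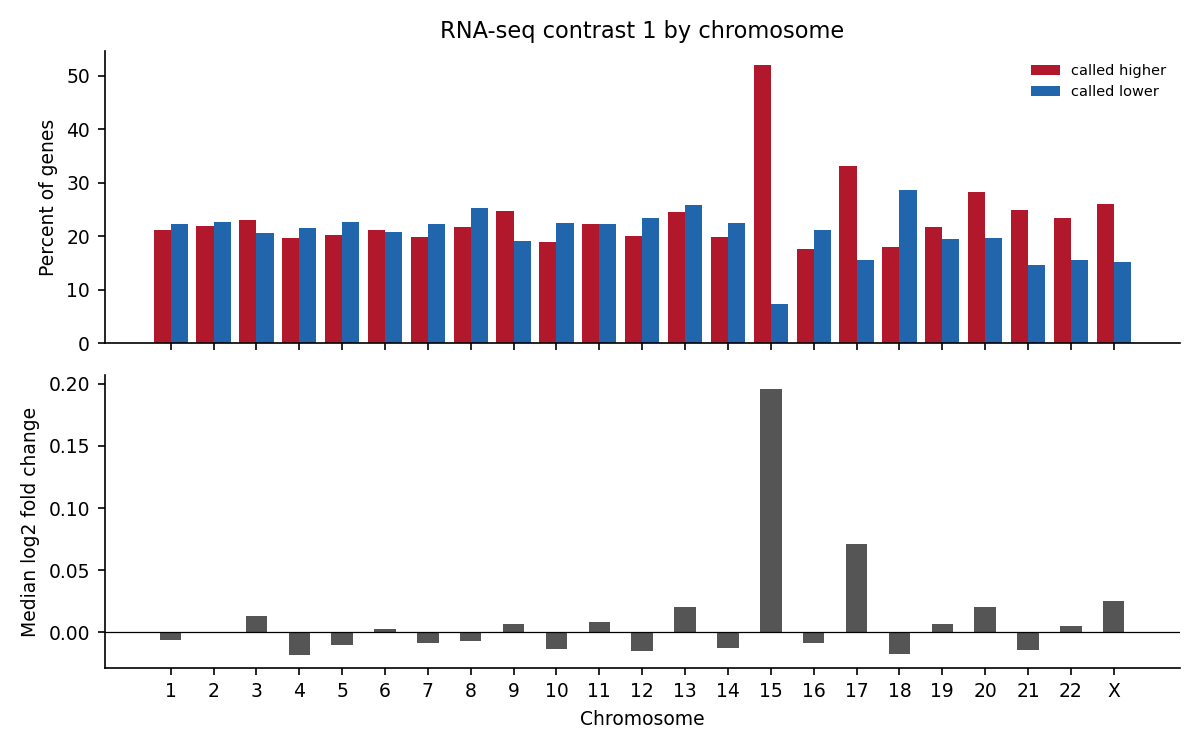
The upper panel gives, per chromosome, the percent of genes called higher (red) and lower (blue) in SATB1 cells, and the lower panel the median log2 fold change from the authors' deposited table. Chromosome 15 stands out with a median of 0.196, followed by chromosome 17 with 0.071.

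Windows of 20 neighbouring genes were ranked by their median log2 fold change, which also counts genes that were not called. Of 3011 windows, 90% had a median log2 fold change between -0.11 and 0.16. The 6 highest without overlap were on chromosome 19 (2), chromosome 17 (2), chromosome X and chromosome 15. The first, from TMEM145 to ETHE1 with a median of 0.56, held 6 genes called higher and 4 called lower. It spans the pregnancy-specific glycoprotein genes, where 6 of 9 tested were higher by 2-fold or more. Of these, PSG1 rose by 30.4-fold in the authors' deposited table. These genes are near-identical. The second, from ZNF491 to ZNF564 (0.55), is a zinc finger cluster. Over the whole genome, 51 of 524 genes named ZNF, ZSCAN or ZFP rose by 2-fold or more (9.73%, against 3.92% of all genes) and 3 fell. On chromosome 19 these were 36 and 1 of 248. At any size, 97 of the 524 were called higher and 100 lower, and their median log2 fold change was -0.034. Of the 524, 9 were among the 79 genes called higher with the first repeated pair of folds. The chromosome 17 window from HOXB3 to NXPH3 (0.40) holds HOXB6 (2.16-fold) and HOXB5 (2.92-fold), and the chromosome X window (0.33) holds MAGEA10. The families were named after their values were seen.

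The 6 lowest windows lay over clusters of epithelial genes and elsewhere. On chromosome 1, from TCHH to SPRR2D, the epidermal differentiation cluster had a median log2 fold change of -1.0, with 8 of 20 genes lower and none higher. The type I keratin window of chromosome 17, from KRT24 to FKBP10 (-0.63), had 9 lower and 4 higher. On chromosome 5, from DPYSL3 to TIGD6 (-0.53), the protease inhibitor genes SPINK5 (0.228-fold) and SPINK6 (0.326-fold), named after their values were seen, were lower in the authors' deposited table. On chromosome 11, from MUC6 to SLC22A18AS (-0.56), 12 of 20 were lower, CDKN1C (0.0983-fold) with the smallest fold; SLC22A18AS is antisense to another gene, and without the strand of counting their reads cannot be told apart. The other 2 held fewer calls. On chromosome 12, from TMEM52B to TAS2R50 (-0.52), 4 of 20 were lower and 1 higher, against 20.7% and 23.2% of all genes. On chromosome 1, from CD1D to KCNJ9 (-0.48), 6 of 20 were lower and none higher. This window holds CADM3 and ACKR1 next to each other.

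Nascent RNA mostly lay on the same side of 1 as the large mRNA changes, and no more often than not for the small ones; no test was made of this, and genes near 0 in one group may be in the GRO-seq table only through the other. GRO-seq, which extends engaged polymerases in isolated nuclei, was measured in 4 other libraries per group, and its first contrast is taken as the same pair. Of 13773 genes in both tables, 49.7% lay above 1 in GRO-seq. Among genes called higher by more than 8-fold in RNA-seq, 145 of 151 (96.0%) were above 1 in GRO-seq; among those higher by 4- to 8-fold, 85 of 102, and by 2- to 4-fold, 147 of 216. Among genes lower by more than 8-fold, 26 of 35 lay below 1, by 4- to 8-fold 57 of 84, and by 2- to 4-fold 139 of 254. Genes called with less than 2-fold showed no such match: 44.2% of 2907 higher ones and 51.0% of 2694 lower ones were above 1. The GRO-seq fold was smaller than the RNA-seq fold at the top, as for COL1A2 (24.3-fold against 681-fold) and CXCL5 (25.7-fold against 2178-fold) in the authors' deposited tables.

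Few of the mRNA changes were called in nascent RNA. GRO-seq called 43 genes higher (0.292%) and 73 lower (0.495%) of 14745; at an unadjusted p under 0.05 it had 1037 higher (7.03%) and 1125 lower (7.63%). Of the 3376 genes of both tables called higher in RNA-seq, GRO-seq called 7 higher and 22 lower; of the 3067 called lower, it called 37 lower and 16 higher. Of the genes in both tables, 469 rose by 2-fold or more in RNA-seq and 41 were called higher in GRO-seq, and 2 were in both lists (0.426% of the first and 4.88% of the second): IL24 and the urokinase gene PLAU (2.07-fold in RNA-seq, 2.73-fold in GRO-seq). Of 373 that fell by 2-fold or more and 73 called lower in GRO-seq, 9 were in both (2.41% and 12.3%), among them ACMSD (0.0648-fold in GRO-seq), CDKN1C (0.0427-fold), SCNN1G (0.101-fold) and TGM1 (0.198-fold) in the authors' deposited GRO-seq table. At an unadjusted p under 0.05 in GRO-seq, 111 of the 469 were on the same side and 11 on the other, and 64 of the 373 and 23. In log2 units the median implied standard error of GRO-seq was 0.302 and that of RNA-seq 0.058; its part in the number of shared calls was not tested. Among genes called higher by less than 2-fold, 183 had an unadjusted p under 0.05 in GRO-seq on the same side and 329 on the other, and among those called lower by less than 2-fold, 253 and 225.

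**Figure D4:**
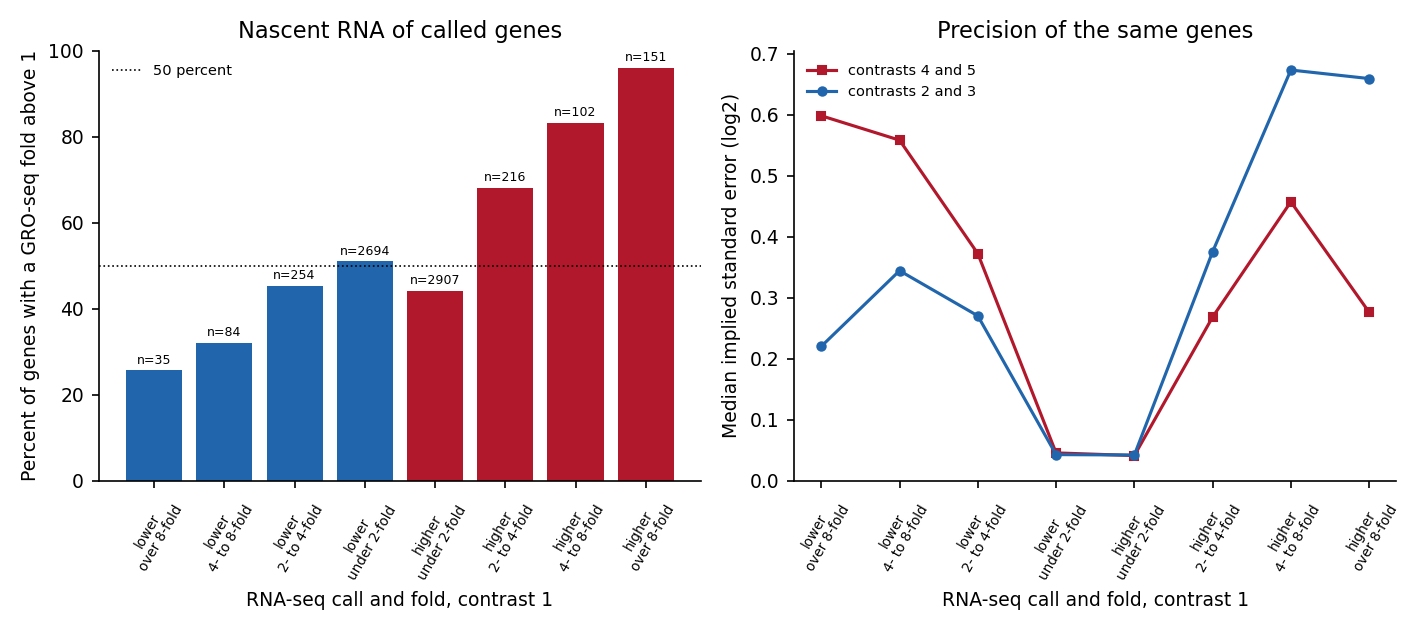
Left, the percent of genes with a GRO-seq fold above 1, by the RNA-seq call and fold (blue lower, red higher; number of genes on each bar); right, the median implied standard error, on the log2 scale, of the same genes in RNA-seq contrasts 4 and 5 (red squares) and 2 and 3 (blue circles). The share above 1 is 25.7% in the first bar and 96.0% in the last, and the 2 lines cross between the genes that are lower and the genes that are higher.

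For genes changed by 2-fold or more, the precision of the other contrasts tracked the direction of the first. For genes higher by more than 8-fold, the median implied standard error was 0.659 in contrasts 2 and 3 and 0.276 in contrasts 4 and 5; for genes lower by more than 8-fold it was 0.220 and 0.598. Genes changed by less than 2-fold differed little, with 0.042 and 0.041 for the higher and 0.043 and 0.045 for the lower ones. Genes higher by 2-fold or more in the first contrast were thus measured less precisely, in the median, in contrasts 2 and 3. Those lower by 2-fold or more were measured less precisely in contrasts 4 and 5. Most called genes changed by less than 2-fold and showed little such difference.

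Promoters of the genes that fell most held fewer CG dinucleotides in the median, given here as a description with no test. Windows of 300 bases, from 250 before to 50 after the transcription start in RefSeq (GRCh38.p14), were found for 12460 of 15500 genes with an unambiguous symbol. Genes lower by 2-fold or more had a median of 8 CG dinucleotides (interquartile range 3 to 25, 315 genes), against 22 (10 to 32, 451 genes) in those higher by 2-fold or more and 24 (13 to 33, 6981 genes) in those not called. Their median share of A and T was 42.0%, against 35.7% in the higher genes and 36.3% in those not called. The letters TATAAA, read on the strand of the gene only and overlapping no other motif searched, stood in 11.1% of the lower, 5.10% of the higher and 4.98% of the not called promoters, and in 7.71% of all 27305 RefSeq promoters of that length. All called genes, most of them changed by little, differed less, with medians of 25 CG for the lower and 27 for the higher. The longest run of A and T letters had a median of 6 in both 2-fold groups.

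**Figure D5:**
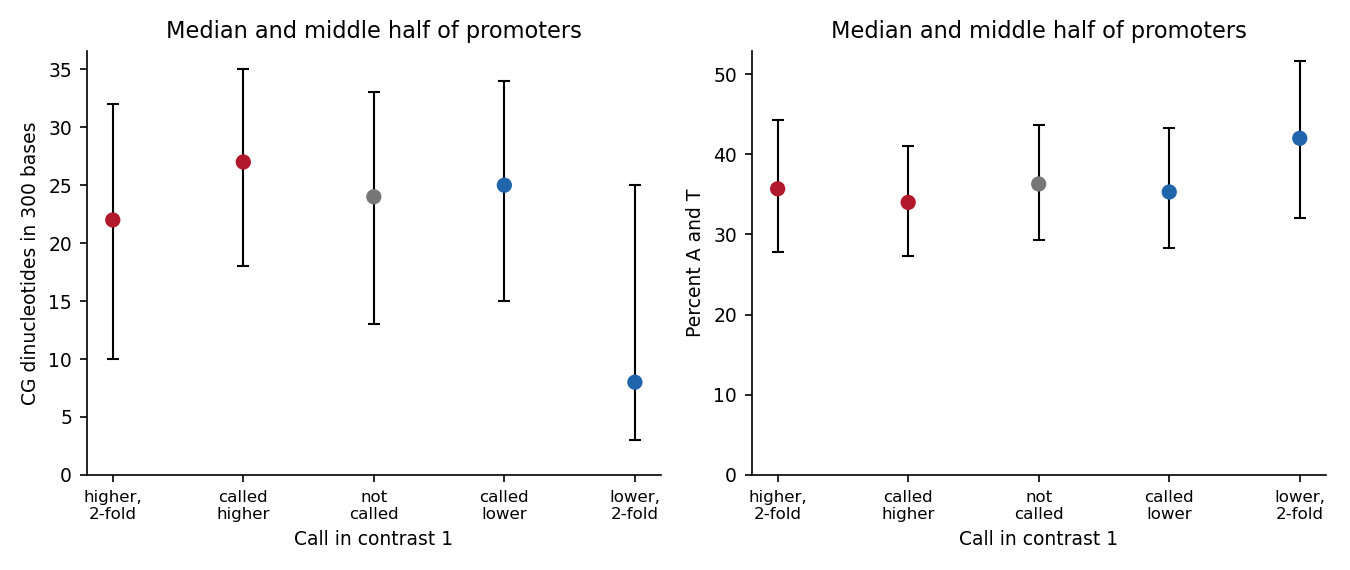
Points give the median and bars the interquartile range of the number of CG dinucleotides (left) and of the percent of A and T (right) in 300-base promoters, for genes higher by 2-fold or more, all called higher, not called, all called lower, and lower by 2-fold or more. The last group has the lowest CG median, 8, and the highest A and T median, 42.0%, and its interquartile ranges overlap those of the other groups.

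Promoters at both ends of the comparison show this range. Of the 15 genes with the smallest folds, 11 had a promoter sequence, 8 of them with fewer than 10 CG (median 2); of the 15 with the largest folds, 12 had one, 5 of them with fewer than 10 CG (median 17.5). Shown first are 3 of the largest increases and then 4 decreases, the last from the squamous list, chosen because their CG numbers span the range; all are 5′ to 3′ on the strand of the gene, with CG and TATAAA in capitals. CXCL5 has 9 CG, GJA1 3 and PLIN2 36; ADH1B, SULT1E1 and SPRR3 have 1 each and CHDH 38. SULT1E1 and SPRR3 hold TATAAA.
CXCL5 (chr4:73998628-73998927, minus strand): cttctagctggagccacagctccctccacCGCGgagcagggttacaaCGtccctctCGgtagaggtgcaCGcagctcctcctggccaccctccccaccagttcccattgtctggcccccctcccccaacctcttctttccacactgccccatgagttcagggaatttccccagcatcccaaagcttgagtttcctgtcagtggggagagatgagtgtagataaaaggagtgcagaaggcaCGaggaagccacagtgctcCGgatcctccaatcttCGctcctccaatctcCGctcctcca
GJA1 (chr6:121435396-121435695, plus strand): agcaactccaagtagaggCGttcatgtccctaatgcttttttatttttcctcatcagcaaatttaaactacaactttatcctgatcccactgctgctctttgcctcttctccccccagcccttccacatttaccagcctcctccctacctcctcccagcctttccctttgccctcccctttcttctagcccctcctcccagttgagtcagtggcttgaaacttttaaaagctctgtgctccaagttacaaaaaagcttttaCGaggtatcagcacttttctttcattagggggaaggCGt
PLIN2 (chr9:19127443-19127742, minus strand): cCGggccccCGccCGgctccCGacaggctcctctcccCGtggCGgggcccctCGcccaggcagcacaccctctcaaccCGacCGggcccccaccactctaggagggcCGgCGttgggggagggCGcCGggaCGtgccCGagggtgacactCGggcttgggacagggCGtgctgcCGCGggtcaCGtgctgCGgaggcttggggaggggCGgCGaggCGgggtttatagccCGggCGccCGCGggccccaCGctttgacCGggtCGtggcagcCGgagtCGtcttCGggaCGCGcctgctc
ADH1B (chr4:99321352-99321651, minus strand): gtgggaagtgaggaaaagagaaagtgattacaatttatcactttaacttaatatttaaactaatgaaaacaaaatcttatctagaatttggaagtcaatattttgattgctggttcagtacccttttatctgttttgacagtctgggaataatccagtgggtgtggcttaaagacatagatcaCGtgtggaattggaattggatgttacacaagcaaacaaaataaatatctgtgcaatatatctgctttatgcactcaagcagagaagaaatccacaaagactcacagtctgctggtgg
CHDH (chr3:53846370-53846669, minus strand): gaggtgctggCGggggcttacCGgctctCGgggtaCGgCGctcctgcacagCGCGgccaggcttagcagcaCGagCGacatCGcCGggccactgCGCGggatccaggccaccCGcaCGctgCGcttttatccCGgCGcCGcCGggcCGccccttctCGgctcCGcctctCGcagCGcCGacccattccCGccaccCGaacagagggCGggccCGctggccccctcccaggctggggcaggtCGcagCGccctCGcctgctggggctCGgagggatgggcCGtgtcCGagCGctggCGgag
SULT1E1 (chr4:69860096-69860395, minus strand): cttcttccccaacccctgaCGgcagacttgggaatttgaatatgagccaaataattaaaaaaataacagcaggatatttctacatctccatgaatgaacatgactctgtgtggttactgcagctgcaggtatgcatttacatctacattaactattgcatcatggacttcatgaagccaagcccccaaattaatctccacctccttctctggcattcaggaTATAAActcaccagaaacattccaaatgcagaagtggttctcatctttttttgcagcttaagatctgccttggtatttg
SPRR3 (chr1:153001499-153001798, plus strand): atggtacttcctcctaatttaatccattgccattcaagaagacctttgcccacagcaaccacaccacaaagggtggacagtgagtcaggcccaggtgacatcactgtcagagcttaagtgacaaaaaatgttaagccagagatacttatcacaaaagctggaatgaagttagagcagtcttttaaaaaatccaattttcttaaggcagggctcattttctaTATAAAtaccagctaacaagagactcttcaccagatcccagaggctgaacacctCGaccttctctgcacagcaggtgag

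SPRR3, of the squamous list, thus has a CG-poor promoter, while CHDH, which was 0.0345-fold in the authors' deposited table, has 38 CG, above the upper quartile of 33 among genes that were not called. A match to these letters describes the window only.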

How the data were processed

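Per the file headers, each row of the deposited tables gives 5 fold changes (linear ratios) and 5 unadjusted p-values for numbered contrasts; the headers hold no group names. Per the submitters' processing notes, STAR and DESeq were used for RNA-seq, BWA 0.7.16a, featureCounts and limma for GRO-seq, and the build GRCh38; no source used here gives settings, filters, the strand of counting or the annotation. RNA was captured with oligo(dT) beads, per the labels' protocols.

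Benjamini-Hochberg adjustment of the deposited p-values ran over 15535 rows with a symbol; 156 rows without one (0.994%) were left out, and 23 date-like and 12 repeated symbols were tested but not named, which left 15500 genes, 99.6% of them placed on GRCh38.p14 through RefSeq. With no values per library, the deposited p-values took the place of fits on counts, as planned. Implied standard errors are the log2 fold change divided by the Student quantile of its p-value at 31 degrees of freedom in RNA-seq and 25 in GRO-seq, where a gene's 5 errors varied least. Where RefSeq lists several promoters of a gene (3565 genes), the first was used. The comparison and the 81 gene lists were chosen with earlier results of these data known; NCBP1 was dropped from the chromosome 9 list because it lies on the other arm. Named genes are SATB1, the 15 largest and 15 smallest folds among called genes, and of each list the 5 called members with the smallest adjusted p, the 3 with the largest change, and all members of short lists and of the chromosome 9 neighbourhood; the text gives part of them. Members of a list that are named without a call carry their adjusted p. The steps were tested on simulated data. Alternatives were other thresholds on p and fold, adjustment over all rows or by Bonferroni, the more precise rows (standard error at or below the median), centring on the median, 18 degrees of freedom and, added after seeing the data, leaving out chromosomes 15 and 17 or the genes with a repeated pair of folds. Software: matplotlib 3.10.9, scipy 1.17.1, pandas 2.3.3, numpy 2.4.6, Python 3.11.15.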

Additional observations from a re-analysis of the deposited data

How the results depend on the processing

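No paired analysis was possible because the tables give no values per library, and for the same reason the planned fits that leave out each replicate were not run; the depth is unknown. Counts of called genes, 3600 higher and 3218 lower, fell to 881 and 738 with a minimum of 1.5-fold, to 609 and 433 with 2-fold, to 1386 and 1031 by Bonferroni adjustment, and to 2343 and 1990 among the more precise rows, where fewer genes are tested. They stayed within 1.5 times at an adjusted p under 0.01 or 0.1, over all rows, and without chromosomes 15 and 17 or the genes with a repeated pair of folds. The share of calls on the same side in nascent RNA, 49.2% of the higher and 50.2% of the lower genes, was 80.4% and 59.5% with a minimum of 2-fold in RNA-seq, and 46.4% and 56.1% at an unadjusted p under 0.05 in GRO-seq. The promoter medians moved with a minimum of 2-fold to 22 CG in the higher genes, from 27, and to 8 CG and 42.0% A and T in the lower genes, from 25 and 35.3%; the cause was not tested. Of 81 lists, 48 had more genes higher and 31 more lower, and the first number stayed above the second under each setting tried. In 19 lists the larger direction turned under at least 1 setting. The interferon-stimulated genes were 3 higher and 5 lower at 2-fold in place of 16 and 8, heat shock genes 0 and 1 in place of 12 and 1, and WNT genes 3 and 4 among the more precise rows in place of 15 and 9. TGF-beta genes were 2 and 3 at 1.5-fold in place of 12 and 10. Without chromosomes 15 and 17, HOX genes were 2 and 6 in place of 7 and 6, and genes of the insulin-like growth factor system 4 and 5 in place of 6 and 5, and glycolysis genes 6 and 7 in place of 8 and 7. Smooth muscle markers were 1 and 2 at 1.5-fold and at 2-fold in place of 4 and 2, and among the more precise rows endothelial markers were 1 and 0 in place of 2 and 3 and adipocyte markers 1 and 0 in place of 1 and 4. Of the 499 genes the naming rule picked, 269 lost their call at 2-fold and 100 by Bonferroni adjustment; no setting alters a deposited fold, so signs could not change.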
